A study of Mus musculus with 6 samples.

Results

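Retinae of mouse embryos at embryonic day 14.5 were profiled by RNA-seq of poly-A enriched RNA in 3 control and 3 conditional knockout (CKO) libraries, and 9 genes of Notch signalling and of the proneural programme were followed across them. The genes are the receptor Notch1, the Delta-like ligand genes Dll1, Dll3 and Dll4, the Hes genes Hes5 and Hes6, and the basic helix-loop-helix (bHLH) genes Atoh7, Neurog2 and Olig2. They were chosen by name, for their place in the pathway, and all 9 are listed among the 23441 distinct genes of the count table and passed the filter on low counts, which left 14609 genes. Control embryos carried floxed alleles of Ronin (the gene Thap11, which encodes a DNA-binding zinc finger protein) in the genotype Ronin flox/flox. CKO embryos carried the same floxed alleles and, in addition, 1 copy of a transgene whose promoter, active in retinal progenitor cells, drives Cre fused to GFP. The controls therefore lacked Cre, and embryos of either genotype came from a mixed strain background of C57/B6, FVB, SJL/B6 and 129/Sv. The labels do not say whether the libraries of a genotype came from separate embryos or litters, and p-values therefore reflect library-to-library spread, some of which may be technical. Whole retinae were used, so fewer cells of a type and less RNA per cell cannot be told apart.

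Notch signalling sets how many retinal progenitor cells leave the cell cycle to become neurons. Delta ligands on a differentiating cell bind Notch receptors on its neighbours, the receptor's intracellular part is released and joins the DNA-binding protein RBPJ, and Hes genes switched on there repress proneural bHLH genes. Proneural factors in turn activate Delta genes, so that ligand and receptor activity are coupled between neighbouring cells. At this stage the mouse retina consists largely of progenitors and produces ganglion cells, cones, horizontal cells and amacrine cells.

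The libraries held 23721052 to 28504391 counted reads. Thap11, examined first as a check of the labels, counted 1739, 1880 and 1880 in the control retinae against 323, 292 and 156 in the CKO retinae (replicates 1, 2 and 3 in that order, as for all values listed by library), and no CKO library overlapped the controls. Control replicate 2 stood apart: its log2 CPM (counts per 1000000 reads of the scaled library) correlated at r = 0.95 and 0.97 with the other controls over all genes, against 0.98 between those 2, and 0.98 to 0.99 among the CKO libraries. Pax6, a gene of retinal progenitors, was at 825 ± 48.9 CPM (control) and 890.2 ± 43.5 CPM (CKO; SD, n = 3 each).

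Ronin binds DNA, so the promoters of the 9 genes were examined for letters of the motif bound by THAP11 and ZNF143, that is CTACA, then NN, then TCCC (called the THAP11-type motif here), and for motifs of the Notch and bHLH factors. The 250 bases before each RefSeq transcript start (build GRCm38.p6) were searched on both strands. All 9 genes matched a promoter, with 11 windows in total since Dll1 and Hes6 have 2 starts each. Those of Hes5 and Atoh7 are shown because they are the 2 that hold an RBPJ core, and the second window of Hes6 because the results on that gene rest on 1 library. In Hes5 the capitals mark the RBPJ core (TGGGAA, or TTCCCA on the opposite strand), in Atoh7 they mark that core and the E-box (CANNTG, which bHLH dimers bind), and in Hes6 they mark the E-box.
Hes5, chr4:154960673-154960922, plus strand: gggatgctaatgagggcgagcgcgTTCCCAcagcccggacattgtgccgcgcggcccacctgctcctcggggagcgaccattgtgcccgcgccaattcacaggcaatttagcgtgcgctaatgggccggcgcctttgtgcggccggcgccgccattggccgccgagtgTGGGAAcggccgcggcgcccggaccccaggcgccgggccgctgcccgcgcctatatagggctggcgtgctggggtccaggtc
Atoh7, chr10:63099535-63099784, plus strand: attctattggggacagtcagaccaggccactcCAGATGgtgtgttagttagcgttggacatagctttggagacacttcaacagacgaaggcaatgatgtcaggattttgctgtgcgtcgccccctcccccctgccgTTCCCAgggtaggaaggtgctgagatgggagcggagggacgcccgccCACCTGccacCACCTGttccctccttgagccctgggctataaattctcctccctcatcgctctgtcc
Hes6, chr1:91413223-91413472, minus strand: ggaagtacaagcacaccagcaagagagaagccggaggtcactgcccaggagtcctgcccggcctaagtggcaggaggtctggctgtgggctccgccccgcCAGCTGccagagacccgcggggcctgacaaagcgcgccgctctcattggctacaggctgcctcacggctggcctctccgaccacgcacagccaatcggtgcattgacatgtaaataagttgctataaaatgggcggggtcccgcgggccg

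Hes5 held 2 RBPJ cores on opposite strands, whose first bases lay 226 and 82 bases before the start. Atoh7 held 1 RBPJ core at 114 bases and 3 E-boxes at 218, 67 and 57 bases before its start. The RBPJ core was found in 2 of the 9 genes (22.2%). It was in 21.6% of all 32851 promoter windows of that length and in 23.7% of tested genes with a promoter. An E-box was found in 5 of 9 genes (55.6%), in 66.2% of all windows and in 61.9% of such tested genes. The N-box CACNAG, a site of Hes repressors, was found in 3 of 9 genes (33.3%), Notch1, Dll4 and Hes6. It was in 36.7% of all windows and in 39.9% of tested genes with a promoter. The THAP11-type motif was found in 0 of the 9 genes, in 1.84% of all windows and in 474 of 10704 tested genes with a promoter (4.43%). By the test described next, 103 genes were lower in the CKO (0.705% of all genes tested) and 28 were higher (0.192%). Of the lower genes 83 matched a promoter, and 60 of these held the THAP11-type motif (72.3%). Of the higher genes 19 matched a promoter, and 6 of these held it (31.6%). The last letters of that motif run into the RBPJ core: of 43 genes lower in the CKO that held an RBPJ core, 32 held it within or across a match to the THAP11-type motif. These are matches of letters in a short window and not measured sites.

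None of the 9 genes passed the test between the genotypes. Genotypes were compared with edgeR's quasi-likelihood test over all 14609 genes, with Benjamini-Hochberg adjustment and a threshold of 0.05. It called 0 of the 9 genes, where 0.897% of all genes tested were called, and 0 of the 9 had an unadjusted p under 0.05, where 6.58% of all genes did. DESeq2's Wald test, which called 2.23% of its genes, and limma-voom, which called 0.821%, also called 0 of the 9, as did edgeR without control replicate 2, where 1.48% of genes were called. The CKO libraries overlapped the controls in each of the 9, where 12.6% of all genes did not overlap. The log2 fold changes, CKO minus control, ran from -0.67 to 0.14 with a median of -0.04, beside a median of -0.03 over all genes tested. For 8 of the 9 genes the 95% interval of the fold change lay within 2-fold in either direction, and the exception was Hes6.

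**Figure D1:**
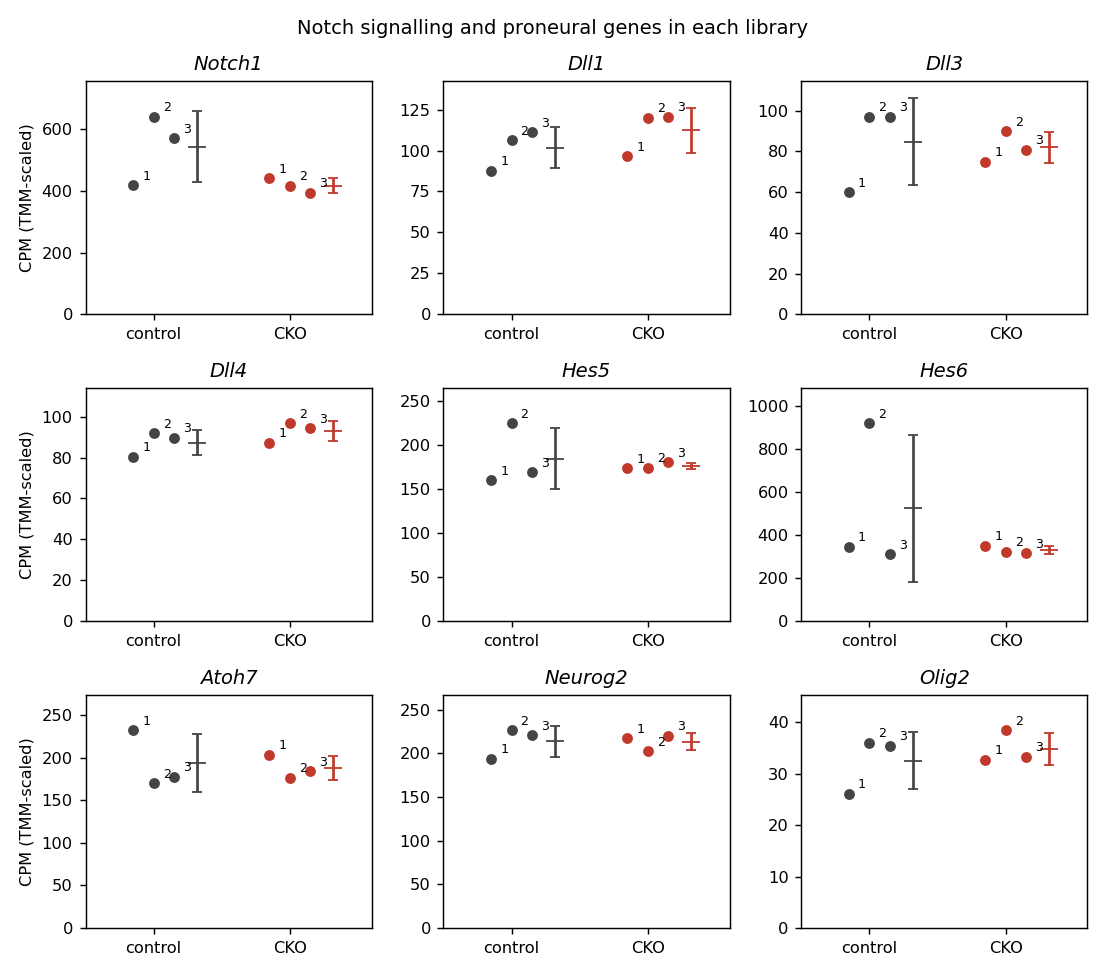
CPM (vertical axis, from 0) of each of the 9 genes in the 3 control libraries (grey) and the 3 CKO libraries (red), with the replicate number beside each point and the mean ± SD beside each group. Control replicate 2 lies at 918 CPM for Hes6, and the CKO points of each gene lie within or across the range of the controls.

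Notch1, the receptor, was the member whose test came closest to a difference. Its level was 419, 641 and 572 CPM in control retinae against 442, 417 and 394 CPM in CKO retinae. Control replicates 2 and 3 were above every CKO library, and control replicate 1 lay among the CKO libraries. The mean was 544 ± 114 CPM (control) and 418 ± 24.1 CPM (CKO; SD, n = 3 each), which gave a log2 fold change of -0.38 ± 0.18 (SE, edgeR adjusted p = 0.803, unadjusted p = 0.0630). Its interval ran from a fold of 0.579 to 1.02. Notch1 ranked 1141 of 14609 genes by p. The value depended on the controls: without control replicate 2 the log2 fold change was -0.23, and without control replicate 1 it was -0.54, with an adjusted p = 0.169 (edgeR), the lowest of its 13 alternatives, which ran up to 0.9999.

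The other receptor genes showed the same sign. Notch3, a receptor best known from vascular mural cells, stood at 132, 228 and 136 CPM in control retinae against 121, 105 and 112 CPM in CKO retinae, with no overlap. Its log2 fold change was -0.55 ± 0.22 (SE, edgeR adjusted p = 0.713), and -0.23 without control replicate 2. Notch2 stood at 54.3, 60.8 and 63.6 CPM in control retinae against 52.2, 51.0 and 43.5 CPM in CKO retinae (log2 fold change -0.28 ± 0.14, edgeR adjusted p = 0.862). Notch4, an endothelial receptor, stood at 13.6, 25.3 and 14.05 CPM in control retinae against 13.6, 12.4 and 13.0 CPM in CKO retinae, where the highest CKO library lay just under the lowest control. Of the 4 receptor genes 0 were called, 4 had negative log2 fold changes (median -0.41, against -0.03 over all genes) and 3 did not overlap, where 6.91% of all genes were lower without overlap. The 14 blood vessel markers were endothelial genes, with no mural cell marker among them. They summed to 303, 362 and 355 CPM in the controls and 285, 259 and 285 CPM in the CKO. Of these markers 12 had negative log2 fold changes (median -0.52), 0 were called and 0 were at 0 in all libraries. Most of that sum was Kdr, which neural retina also expresses, at 283 ± 31.6 and 237 ± 5.78 CPM (SD, n = 3 each). Pecam1, a defining endothelial marker, was at 5.30, 4.71 and 4.83 CPM in control retinae against 3.22, 1.87 and 4.01 CPM in CKO retinae. The part of vessel cells in the receptor values, and in those of Dll4, was not tested.

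The 3 Delta-like ligand genes had log2 fold changes between -0.05 and 0.14. Dll1, the Delta ligand of nascent neurons in the embryonic nervous system, stood at 87.7, 106 and 111 CPM in control retinae against 96.7, 120.0 and 121 CPM in CKO retinae. CKO replicates 2 and 3 were above every control, and CKO replicate 1 lay below control replicates 2 and 3. Its log2 fold change of 0.14 ± 0.15 (SE, edgeR adjusted p = 0.941) had an interval of 0.861- to 1.42-fold. Dll3, a divergent ligand that acts within the cell that makes it and does not activate Notch in neighbours, stood at 59.9, 96.9 and 97.0 CPM in control retinae against 75.0, 89.8 and 80.9 CPM in CKO retinae. All 3 CKO libraries fell between control replicate 1 and the other controls, and the log2 fold change was -0.05 ± 0.20 (edgeR adjusted p = 0.986). Dll4, the ligand that marks newly postmitotic retinal cells as well as vessel tips, stood at 80.5, 91.8 and 89.8 CPM in control retinae against 87.3, 96.7 and 94.3 CPM in CKO retinae. Control replicate 1 was lowest, CKO replicates 2 and 3 were above every control, and the ranges overlapped through CKO replicate 1. Its log2 fold change of 0.09 ± 0.12 (edgeR adjusted p = 0.953) had an interval of 0.871- to 1.296-fold.

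Of the Hes genes, Hes5 is a direct Notch target that represses proneural genes, while Hes6 is expressed in differentiating cells, is not switched on by Notch and counters Hes1. Hes5 stood at 160.0, 224 and 169 CPM in control retinae against 173, 174 and 180.2 CPM in CKO retinae. The CKO libraries lay close together, between control replicate 3 and control replicate 2, with a log2 fold change of -0.07 ± 0.16 (SE, edgeR adjusted p = 0.962). Without control replicate 2 the sign turned, to 0.11 ± 0.08 (SE), with no call.

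Hes6 had the widest spread of the 9 genes, and that spread was in the controls. Its level was 345, 918 and 311 CPM in control retinae against 349, 322 and 315 CPM in CKO retinae. All 3 CKO libraries and the other 2 controls lay between 311 and 349 CPM, and control replicate 2 was alone above them. In that library Hes6 was 1.41 log2 units above the next control, which ranked 91 among 14609 genes, and 3.4% of all genes were at least 1 log2 unit above both other controls there. The log2 fold change was -0.67 ± 0.39 (SE, edgeR adjusted p = 0.908) with an interval of 0.334- to 1.177-fold. Without control replicate 2 it was 0.02 ± 0.09 (SE), with an interval from -0.20 to 0.24 on the log2 scale and no call. The 10 markers of periocular mesenchyme summed to 76.6, 190.5 and 82.6 CPM in control retinae against 75.8, 58.5 and 78.7 CPM in CKO retinae. In control replicate 2 most of that sum was the collagen genes Col6a1 (110.4 CPM) and Col1a2 (64.0 CPM), while 5 of the 10, Col1a1, Col3a1 and Pdgfra among them, were highest in another library. Sums of progenitor and ganglion cell markers were also highest in control replicate 2. Sums of the other retinal lists were not: photoreceptor precursor markers were at 601, 576 and 776 CPM in the controls. Amacrine and horizontal cell markers were at 357, 407 and 509 CPM. In the controls the 13 progenitor markers summed to 10984, 11356 and 10754 CPM, and the 14 ganglion cell markers to 4992, 6051 and 4893 CPM. Single progenitor markers went both ways there: Rax was at 279, 703 and 277 CPM in the controls, and Fgf15 at 1503, 976 and 1319 CPM. The part of any of these cells in the Hes6 value was not tested.

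**Figure D2:**
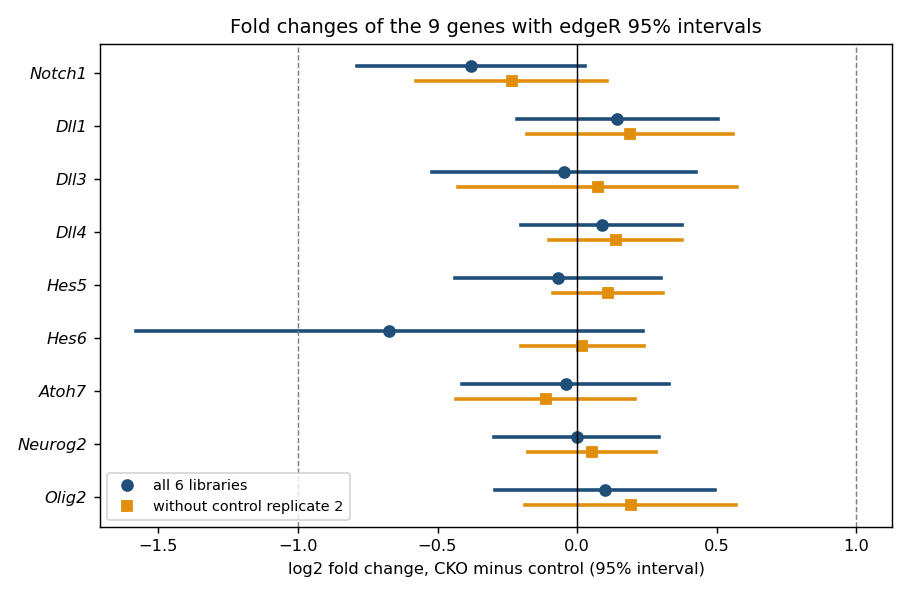
Log2 fold change, CKO minus control (horizontal axis), of each gene with its 95% interval from edgeR, for all 6 libraries (blue circles) and without control replicate 2 (orange squares); dashed lines mark 2-fold. Every interval includes 0 in either fit, and that of Hes6 narrows and moves from -0.67 to 0.02 without that library.

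The proneural and neurogenic bHLH genes had log2 fold changes between -0.04 and 0.10. Atoh7, which progenitors need in order to make ganglion cells, stood at 232, 170.1 and 178 CPM in control retinae against 203.5, 176 and 184 CPM in CKO retinae. Control replicate 1 was the highest of the 6 libraries, the CKO libraries fell between it and the lowest control, and the log2 fold change was -0.04 ± 0.16 (SE, edgeR adjusted p = 0.983). Neurog2, a proneural factor of the advancing wave of retinal neurogenesis, stood at 194, 226 and 221 CPM in control retinae against 217, 202 and 220.1 CPM in CKO retinae. Control replicate 1 was the lowest and control replicate 2 the highest library, with the CKO between them. Its means were 214 ± 17.4 (control) and 213 ± 9.57 CPM (CKO; SD, n = 3 each), and its log2 fold change of -0.0023 ± 0.13 (edgeR adjusted p = 0.999) had an interval of 0.814- to 1.23-fold. Olig2, which marks progenitors close to their last division in the retina, stood at 26.1, 36.0 and 35.4 CPM in control retinae against 32.7, 38.5 and 33.3 CPM in CKO retinae. Control replicate 1 was the lowest and CKO replicate 2 the highest library, and the others lay between 32.7 and 36.0 CPM. Its log2 fold change was 0.10 ± 0.17 (edgeR adjusted p = 0.957). Olig2 also marks oligodendrocyte precursors. Sox10, a defining gene of that lineage, had between 0 and 2 reads in each of the 6 libraries, and Gpr17 between 0 and 3. Other markers of the lineage were expressed. All 7 summed to 62.0, 63.0 and 71.6 CPM in control retinae against 68.3, 65.9 and 69.5 CPM in CKO retinae. Of these 4 were tested, 2 with positive and 2 with negative log2 fold changes, and 0 were called. The part of such cells in the Olig2 value was not tested.

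The libraries of a genotype also differed among themselves. Among the controls the SD of log2 CPM was larger than in the CKO for each of the 9 genes, for Dll1 by very little (0.1827 against 0.1825). It was larger for 87.5% of all genes tested. Control replicate 1 was the lowest of the 6 libraries for 6 of the 9 genes (Dll1, Dll3, Dll4, Hes5, Neurog2 and Olig2), where 24.9% of all genes were lowest there, and the highest for Atoh7. For 5 of the 9 genes CKO replicate 1 was also the lowest CKO library, where 15.9% of all genes had both.

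Levels were compared between genes per length of exons, as RPKM (CPM per kilobase of the union of exons in GENCODE M21, which may not be the annotation the authors counted on). In the CKO the order of the mean RPKM was Hes6 (182 ± 9.90), Hes5 (129 ± 2.78), Atoh7 (115 ± 8.63), Neurog2 (95.8 ± 4.30), Notch1 (29.4 ± 1.69), Dll3 (28.7 ± 2.62), Dll1 (26.7 ± 3.24), Dll4 (24.1 ± 1.27) and Olig2 (13.8 ± 1.25; SD, n = 3). In the controls the order of means was the same, from 290.1 ± 189 RPKM for Hes6 to 12.8 ± 2.19 RPKM for Olig2. Hes6 was in place 1, Neurog2 in place 4 and Olig2 in place 9 in all 6 libraries. Hes5 and Atoh7 changed places in control replicate 1. Notch1 and Dll3 were each above Dll4 in all 6 libraries, by as little as 21.02 against 20.90 RPKM for Dll3 in control replicate 1. The other pairs among Notch1, Dll1, Dll3 and Dll4 changed places in at least 1 library. The 3 ligand transcripts were each below the 4 Hes and proneural genes other than Olig2 in every library.

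Ratios of raw counts within a library do not depend on how libraries are scaled. Dll1 had 0.209, 0.166 and 0.195 reads per Notch1 read in the controls and 0.219, 0.288 and 0.306 in the CKO. Olig2 had 0.0623, 0.0561 and 0.0619 reads per Notch1 read in the controls and 0.0739, 0.0923 and 0.0845 in the CKO. For these genes, and for Dll4, Hes5 and Neurog2, each CKO library was above each control, so that 5 of the 8 other genes were higher per Notch1 read without overlap, where 20.3% of all genes were, and 0 were lower, where 1.62% were. The 8 ratios share the Notch1 count and are not independent. Notch1 itself had a log2 fold change of -0.38, and a lower Notch1 count raises all 8 of them. Neurog2 per Notch1 differed by 0.36 log2 units, while the log2 fold change of Neurog2 itself was -0.0023. The ratios are therefore no separate result on the other genes. A two-sided exact permutation test gave p = 0.1 for each of the 5, the smallest that 3 libraries against 3 allow, and an adjusted p = 0.26 over the 13 ratios computed, so none of these ratios passed. For Dll3 the ratio overlapped narrowly, with control replicate 3 at 0.1696 and CKO replicate 1 at 0.1695. The ratio of Hes6 to Hes5 was 2.16, 4.09 and 1.84 in the controls and 2.02, 1.85 and 1.75 in the CKO (exact permutation p = 0.3), and that of Atoh7 to Neurog2 was 1.198, 0.751 and 0.805 in the controls and 0.936, 0.871 and 0.836 in the CKO (exact permutation p = 1).

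**Figure D3:**
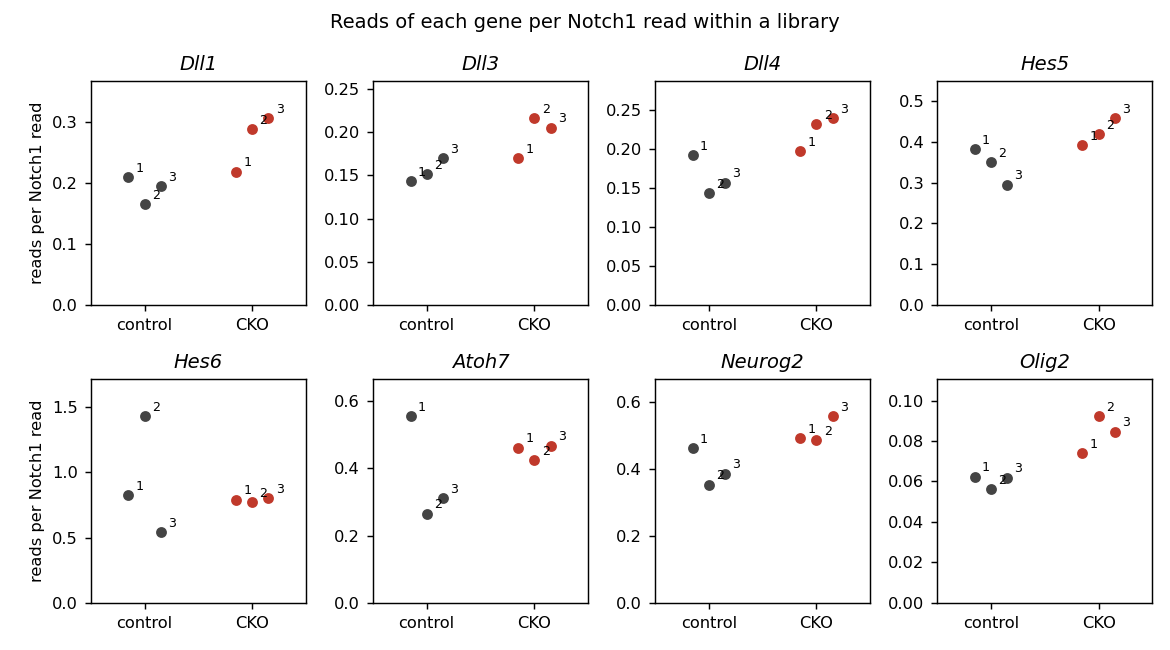
Reads of each of the 8 other genes per Notch1 read (vertical axis, from 0) in the control (grey) and CKO libraries (red), with replicate numbers beside the points. For Dll1, Dll4, Hes5, Neurog2 and Olig2 the 3 CKO points lie above the 3 control points, while Hes6 in control replicate 2 lies at 1.43.

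The 9 genes were next placed among the other genes of the pathway, in 8 lists written from textbook knowledge that hold 109 genes in the table, of which 102 were tested. None of the 102 was called, where 0.897% of all genes were, and 0 were called by DESeq2 or limma-voom. At an unadjusted p under 0.05 there were 6, where 6.58% of all genes were. They were Notch3 and Onecut2 with negative and Aph1c, Dtx2, Neurog1 and Nhlh1 with positive log2 fold changes, named after their values were seen apart from Notch3. The median log2 fold change of the 102 was -0.04, with 47 positive and 55 negative, and 6 were higher and 6 lower without overlap, where 5.74% and 6.91% of all genes were.

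Among ligands, none of 7 tested genes was called (median 0.01). Jag2, a Serrate-type ligand, was at 44.4 ± 21.3 CPM (control) and 36.6 ± 4.22 CPM (CKO; SD, n = 3 each). Jag1, the ligand gene that lens also expresses, stood at 17.6, 23.6 and 18.7 CPM in control retinae against 30.8, 15.8 and 18.0 CPM in CKO retinae, so that CKO replicate 1 was alone above the rest. Its log2 fold change was 0.11 with all libraries and -0.24 without CKO replicate 1. The 12 lens markers summed to 17.2, 11.4 and 11.6 CPM in the controls and to 8091, 63.3 and 526 CPM in CKO replicates 1 to 3, with 10 of 10 tested members positive and 0 called. The part of lens RNA in the Jag1 value was not tested.

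Of 26 genes that modify, cleave or turn over ligand and receptor, 0 were called (median -0.02). Dtx4, a Deltex-type ubiquitin ligase, was at 481 ± 115 CPM (control) and 366 ± 35.8 CPM (CKO; SD, n = 3 each), without overlap, at a log2 fold change of -0.39 ± 0.19 (SE, edgeR adjusted p = 0.834) and -0.17 without control replicate 2. Adam10, the protease that cuts the ligand-bound receptor outside the membrane, was at 329 ± 102 and 362 ± 23.1 CPM (SD, n = 3 each). The THAP11-type motif was found in 3 of 80 pathway genes with a promoter (3.75%), all of this list: Aph1a and Psenen, which encode subunits of gamma-secretase, and Dtx2. The matched stretch in Dtx2 was CTACATTTCCC, 29 bases before the start, and in Aph1a it was CTACAACTCCC, 84 bases before the start. The log2 fold change was 0.34 ± 0.14 for Dtx2 (SE, edgeR adjusted p = 0.695), 0.20 ± 0.14 for Aph1a (adjusted p = 0.935) and -0.14 ± 0.25 for Psenen (adjusted p = 0.958).

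In the nucleus, 0 of 22 genes of the RBPJ complex and its co-regulators were called (median -0.11). The corepressor gene Ctbp1 was at 529 ± 114 and 484 ± 22.7 CPM, and Ncor1, a nuclear receptor corepressor gene, at 412 ± 34.2 and 365 ± 28.0 CPM in control and CKO (SD, n = 3 each). Of the Notch targets 7 of 9 were tested and 0 called (median 0.10). Hes1, the Hes gene of progenitors, was at 144 ± 22.5 and 129 ± 4.93 CPM. Nrarp, a target that feeds back on the Notch complex, stood at 133, 84.0 and 138 CPM in control retinae against 167, 153 and 142 CPM in CKO retinae, without overlap. Its log2 fold change of 0.38 ± 0.20 (SE, edgeR adjusted p = 0.893) became 0.20 without control replicate 2, the lowest of the 6 libraries.

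Among proneural and neuronal bHLH genes 14 of 19 passed the filter and 0 were called (median 0.11). Neurod1, which acts later in photoreceptor and amacrine precursors, was at 144 ± 46.6 and 182 ± 19.1 CPM (SD, n = 3 each). Of the dimerisation partners, 7 E protein and Id genes, 0 were called (median -0.18), with Tcf3 at 387 ± 99.3 and 331 ± 18.2 CPM and Tcf12 at 294 ± 109 and 349 ± 17.7 CPM. Among 15 further genes of neurogenic precursors 0 were called (median -0.06). Sox11, a transcription factor gene of early neurons, stood at 1028, 1791 and 1267 CPM in control retinae against 999, 1046 and 1060.2 CPM in CKO retinae, with control replicate 2 the highest, and its relative Sox4 at 340.0, 767 and 429 CPM in control retinae against 445, 417 and 398 CPM in CKO retinae.

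**Figure D4:**
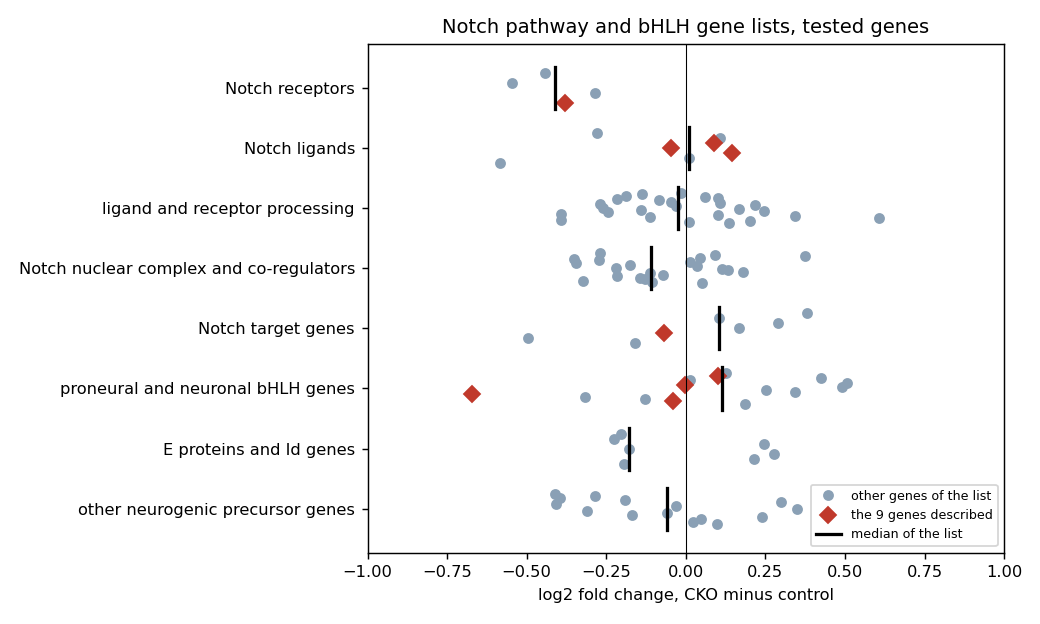
Log2 fold change, CKO minus control (horizontal axis), of each tested gene in the 8 lists (vertical axis); red diamonds are the 9 genes described, blue-grey circles the other genes and black bars the list medians. The 4 receptor genes lie below 0 with a median of -0.41, and the other lists straddle 0.

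The genes with profiles most like those of the 9 were sought over the 6 libraries, as the smallest root mean square difference of log2 CPM after each gene was centred on its own mean, among 10719 genes whose log2 CPM averaged 3 or more. This difference is not scaled by a gene's own spread, so genes that vary little lie close to one another. The closest of all was Copa, a coat protein gene of vesicles, to Dll4, at a difference of 0.0089. Dll4 varied little, with an SD of log2 CPM of 0.10 in the controls and 0.08 in the CKO. For Notch1 the nearest were Runx1t1 (0.0338) and Lphn1 (0.0353), and for Dll1 Pcgf2 (0.0367) and 2410002F23Rik (0.0373). For Dll3 they were 4930578M01Rik (0.0357) and Stk36 (0.05001), and for Dll4, after Copa, Lonrf1 (0.0207). For Hes5 the nearest was Sin3b (0.0142), and for Atoh7 they were Calu (0.0208) and Hmgb3 (0.0260). For Neurog2 they were Fbxo42 (0.0194) and Abl1 (0.0248), and for Olig2 Cables2 (0.0373) and Dzip1 (0.0389). Hes6 was most like Btbd17 (0.0459) and Ogfr (0.0475), which stood at 163 and 359 CPM in control replicate 2 and at no more than 67.2 and 129.6 CPM, respectively, in the other 5 libraries. Among the 9 genes themselves the nearest pair was Dll4 and Neurog2 (0.0861), followed by Dll1 and Dll4 (0.0879), and the farthest was Hes6 and Atoh7 (0.630).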

How the data were processed

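The submitters' processing notes list BWA (0.7.6a-r433), HTSeq (0.5.4p3), DESeq (2.13) and the mm9 build without saying what each did. Annotation and strand setting: not given in the sources used here; antisense partners may share reads with a gene. The authors deposited raw read counts per gene symbol. Skipped were 3 conflict lines and 1 blank line, and 1 symbol present in duplicate was counted once. Counts were fitted in R 4.3.3 with edgeR 4.0.16 (filterByExpr, minimum count 10; TMM; glmQLFit and glmQLFTest; genotype only), adjusting p-values over all genes tested. The SE was the size of the log2 fold change over the root of its F value, and intervals used the fit's degrees of freedom. Profiles used log2 CPM with a prior count of 2. DESeq2 1.42.0 and limma 3.58.1 were alternatives. Groups and replicate numbers came from the sample titles. Named genes were Thap11, the 9 genes, per list any called genes and the 2 most abundant others, and the 2 most similar profiles per gene; some genes that this rule names are not reported here. The genes, lists, motifs and tests were chosen with earlier results of these data known. Libraries of a genotype differed by more than sampling noise (chi-square per degree of freedom 5.77 or more).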

Additional observations from a re-analysis of the deposited data

How the results depend on the processing

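The 9 genes and the 102 pathway genes gave 0 calls in each of 13 alternatives (other scalings, filters and tests, the replicate number as a block, and each library left out). The count over all genes, 131, was 326 with DESeq2's Wald test and ran from 16 (without CKO replicate 3) to 219 (without control replicate 2) when 1 library was left out, with 33 without control replicate 3, 41 without CKO replicate 1 and 53 without CKO replicate 2. The replicate block gave 153 calls. Replicate numbers showed no uniform pairing of the samples. Deviations from the group means correlated at 0.34, 0.11 and -0.0077 for numbers 1 to 3. Control replicate 1 correlated best with CKO replicate 1, and at -0.25 and -0.15 with CKO replicates 2 and 3. Control replicate 2 correlated best with CKO replicate 3 (0.14), and control replicate 3 with CKO replicate 2 (0.20). Whether libraries of number 1 shared an origin or batch was not tested.

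Log2 fold changes turned sign for 6 of the 9 genes, none of them called. With library sizes only, they were 0.0335 for Dll3, 0.0149 for Hes5, 0.0273 for Atoh7 and 0.0739 for Neurog2. Neurog2 was also 0.0153 with DESeq2 size factors, 0.0154 with DESeq2's Wald test, 0.00138 without the filter, 7.6e-05 with limma-voom and 7.7e-06 with the replicate block. Leaving out 1 library gave ranges of -0.243 to 0.0998 for Dll3, -0.159 to 0.110 for Hes5, -0.902 to 0.0183 for Hes6, -0.112 to 0.113 for Atoh7, -0.0668 to 0.0560 for Neurog2 and -0.0350 to 0.202 for Olig2. Of 16 other named pathway genes 7 turned: Jag2 (-0.586 to 0.132), Adam10 (-0.0810 to 0.332), Ctbp1 (-0.220 to 0.0656), Tcf3 (-0.323 to 0.0162), Tcf12 (-0.0236 to 0.430) and Sox4 (-0.509 to 0.140) did so without control replicate 2, and Jag1 (-0.243 to 0.289) without CKO replicate 1. The cause was not tested.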
